A study of Homo sapiens with 6 samples.

Results

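MHC class I antigen presentation was followed in MiaPaCa-2, an established human pancreatic ductal adenocarcinoma (PDAC) cell line, through 9 genes taken from the 60668 genes of 1 RNA-seq table. The genes were chosen by symbol for their roles in the pathway. They are the class I heavy chains HLA-B, HLA-C and HLA-E, the light chain B2M, the peptide transporter subunits TAP1 and TAP2, the loading factor TAPBP, the trimming peptidase ERAP1 and the transcriptional activator NLRC5. Cells were kept for 48 h in low glucose (2.5 mM, 3 libraries) or in control medium (25 mM, 3 libraries), with no other treatment named in the labels. The study asked how PDAC cells withstand scarce nutrients, and RNA-seq recorded the transcripts present under each glucose level. All 6 libraries come from the same parental line, so the values describe 1 cell line in culture.

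Class I molecules show fragments of a cell's own proteins to cytotoxic T cells. The proteasome cuts proteins into peptides, the TAP1 and TAP2 heterodimer pumps them into the endoplasmic reticulum, and ERAP1 trims their amino ends to the length that fits the groove. Tapasin (TAPBP), calreticulin and the disulfide isomerase PDIA3 hold an empty heavy chain with beta-2-microglobulin next to the transporter until a peptide binds, and the complex then leaves for the surface. HLA-B and HLA-C are classical heavy chains, and HLA-E is a non-classical one whose main receptor on natural killer cells is CD94/NKG2A. NLRC5 is a co-activator that is recruited to the conserved SXY module of class I promoters, while interferons and NF-kB act through neighbouring elements. In pancreatic cancer, class I molecules are known to be degraded by autophagy, which keeps surface levels low.

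The control libraries held 9741183 to 10190154 reads on genes and the low-glucose libraries 10595408 to 13733477. Libraries are called shallowest, middle and deepest within their condition by these totals. The labels tie 2 of the 6 columns to samples, both of them low glucose, and the other 4 were placed by the run of 3 column names in each condition. The labels' treatment text gives 2.5 mM for every sample, whereas titles and design distinguish the 2 conditions. The keratins KRT8, KRT18 and KRT19 and vimentin (VIM) were abundant in every library, while the epithelial adhesion genes EPCAM and CDH1 had 3 reads at most. From control to low glucose, KRT8 went from 42487 to 21111.5 normalized counts (log2 fold change -1.01, limma adjusted p = 3.26e-06). VIM rose by 0.42 (limma adjusted p = 0.00819, up to 0.206 over the alternatives). The leukocyte markers PTPRC and CD3E had 0 reads in all libraries, and CD14, LYZ and CD68 summed with them to 42.4 to 56.7 normalized counts in control and 13.6 to 27.9 in low glucose. The stromal list of 5 genes summed to 2651 to 2882 in control against 1922 to 1952 in low glucose, nearly all of it COL1A2, with DCN at 0. COL1A1 (0.38, at most 14 reads in a library) and PDGFRB (1.52, at most 9 reads) had positive log2 fold changes. Neither passed (limma adjusted p = 0.643 and 0.0910). CD14, with 11 to 45 reads per library, fell by 1.19 on the log2 scale (limma adjusted p = 0.0196, up to 0.0974 over the alternatives). COL1A2 fell by 0.52 (limma adjusted p = 8.24e-05). The part of these cell types in the results below was not tested. The endothelial pair PECAM1 and VWF summed to at most 7.80 in any library.

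Of the 9 genes, 3 were higher in low glucose, 2 were lower and 4 did not pass the test. HLA-B, HLA-C and HLA-E rose, TAP2 and TAPBP fell, and B2M, TAP1, ERAP1 and NLRC5 stayed under the threshold. The test was limma on log2(normalized count + 1), two-sided, with Benjamini-Hochberg adjustment over all 21101 genes tested and a threshold of 0.05. The members called make up 55.6% of the 9, while 30.9% of all tested genes were called, 14.7% as higher and 16.2% as lower. Among genes with a mean normalized count of at least 5, 6572 of 16788 were called, and again 5 of the 9 members. The members' median log2 fold change was 0.16, beside 0.05 over all tested genes. The 3 control and the 3 low-glucose values did not overlap for 5 of the 9 genes, and for 43.9% of all tested genes. Without the shallowest control library the 3 heavy chains alone were called, and without the middle control library 6 genes were, with ERAP1 added as higher. All 9 passed the filter on low values, a mean normalized count of at least 1. In bulk RNA a change in the amount per cell cannot be told apart from a change in the share of cells that carry it, and the p-values measure only the spread between these libraries.

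**Figure D1:**
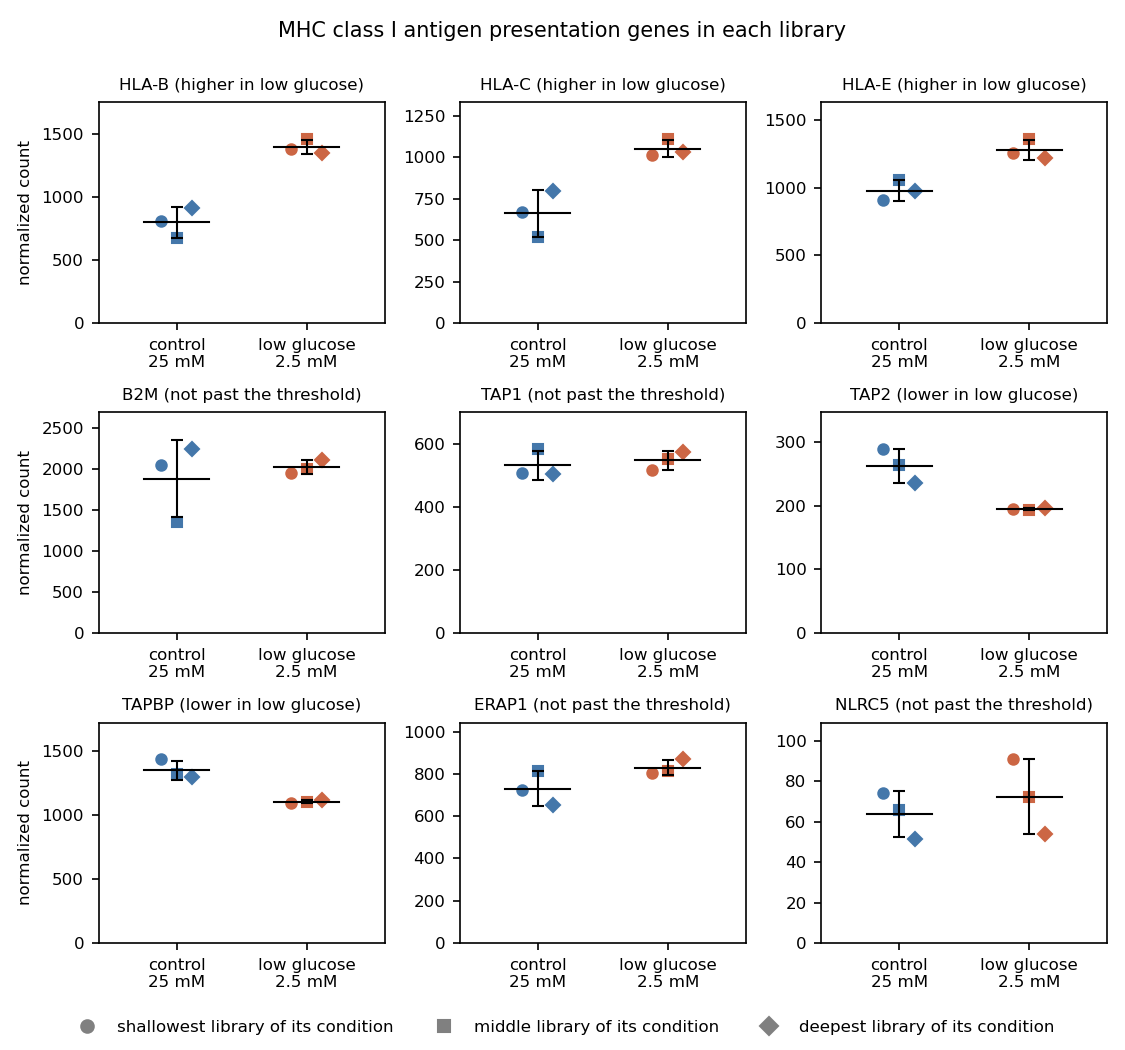
Normalized count (gene reads divided by the library's size factor, axis from 0) of each class I gene in the 3 control and the 3 low-glucose libraries. Marker shapes give the library's depth rank, long bars the mean and error bars 1 SD. HLA-B in low glucose lies at 1352.5 to 1458, above its 3 control values of 672 to 916, while the values of B2M, TAP1, ERAP1 and NLRC5 overlap between the conditions.

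Per transcript length, the 9 genes covered a wide range of levels. As TPM, transcript levels per length and library total, computed from the recovered reads and the length of the canonical transcript, B2M was at 361 ± 81.9 (SD, n = 3) in control. HLA-B followed at 94.3 ± 11.96, HLA-C at 77.7 ± 14.5, TAPBP at 71.2 ± 5.21 and HLA-E at 69.8 ± 6.24 TPM. These 4 could not be put in a full order, since each one's libraries overlapped with those of its neighbours. HLA-B's lowest library (81.3 TPM) still lay above every library of TAPBP and HLA-E. TAP1 (35.9 ± 3.84), ERAP1 (27.4 ± 3.83), TAP2 (8.48 ± 1.06) and NLRC5 (1.71 ± 0.345 TPM) came below them without overlap.

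In low glucose the same genes could be ranked throughout. B2M stood at 380 ± 19.7 TPM (SD, n = 3), HLA-B at 161 ± 5.66, HLA-C at 121 ± 5.79 and HLA-E at 88.9 ± 4.66. TAPBP was at 56.7 ± 1.21, TAP1 at 36.1 ± 2.31, ERAP1 at 30.4 ± 1.65, TAP2 at 6.15 ± 0.101 and NLRC5 at 1.89 ± 0.465 TPM. Each gene's lowest library lay above the highest library of the next gene. HLA-E had moved from overlap with TAPBP to a clear lead over it.

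HLA-B (ENSG00000234745.11, minus strand of chromosome 6 in hg38, 31353872 to 31367067) presents peptides to CD8 T cells and serves as a ligand of killer cell receptors. Its normalized counts were 812, 672 and 916 in the shallowest, middle and deepest control libraries and 1384, 1458 and 1352.5 in the low-glucose libraries. All 3 low-glucose libraries were above all 3 controls. The mean went from 799.9 ± 122 to 1398 ± 54.3 (SD, n = 3), a ratio of 1.75. The log2 fold change was 0.82 (standard error, SE, 0.101, 95% interval 0.60 to 1.03, limma adjusted p = 3.18e-05), the largest of the 9. It stayed between 0.70 and 0.92 with any 1 library left out, and its largest adjusted p over all alternatives with limma, edgeR or DESeq2 was 0.0188.

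HLA-C (ENSG00000204525.16, minus strand of chromosome 6, 31268749 to 31272130) is the chief ligand of the KIR receptors of natural killer cells. It had 668, 518 and 800.3 normalized counts in control and 1017.5, 1110.1 and 1032 in low glucose. The conditions did not overlap, and the middle control library was the lowest, as it was for HLA-B. From a mean of 662 ± 141 to 1053 ± 49.8 (SD, n = 3), HLA-C rose by 0.69 on the log2 scale (SE 0.123, limma adjusted p = 0.000672). Leaving out 1 library gave 0.52 to 0.84. The largest adjusted p of HLA-C over all alternatives was 0.0498, from limma without the variance trend and close to the threshold.

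HLA-E (ENSG00000204592.9, plus strand of chromosome 6, 30489509 to 30494194) displays leader peptides of other class I chains. The control libraries had 907, 1055.5 and 974 normalized counts and the low-glucose libraries 1257.5, 1357 and 1217. Here too the conditions separated, but the middle control library was the highest of its condition and not the lowest. The mean went from 979 ± 74.4 to 1277 ± 72.3 (SD, n = 3), with a log2 fold change of 0.39 (SE 0.0830, limma adjusted p = 0.00268). Without a trend in the variance model the limma adjusted p was 0.0535, and all alternatives together spanned 2.17e-05 to 0.0535.

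Reads of the 3 heavy chains came from genes that resemble each other and differ between people, and the authors mapped them to 1 reference genome, so their division among the chains is uncertain. The listed class I pseudogenes, whose sequences are close to those of the heavy chains, were given the same test. Of 11 such genes, 7 had no read and 4 were tested, of which 3 rose and none fell (median log2 fold change 0.80). HLA-H rose by 0.81 (limma adjusted p = 0.00632), from 60.2 to 84.5 normalized counts in control to 105 to 178 in low glucose. HLA-J rose by 0.79 (limma adjusted p = 0.00201) and HLA-L by 0.62 (limma adjusted p = 0.0258). HLA-H and HLA-L were not called in every alternative, with limma adjusted p-values of up to 0.0733 and 0.125. The fourth, HLA-W, had at most 4 reads in a library.

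HLA-B also overlaps a gene of the opposite strand. ENSG00000271581, an unprocessed pseudogene, has 671 exon bases in common with it, and the strand setting of the counting is not stated. The pseudogene went from 388 to 642 normalized counts (log2 fold change 0.74, limma adjusted p = 0.000297). Its normalized count was 44.6% to 51.2% of HLA-B's in all 6 libraries, with overlap between the conditions. HLA-C and HLA-E share no exon with a gene that has reads.

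The other non-classical and class I-like heavy chains were scarce. Of 5 listed, CD1D had no read, and the 4 tested had a median of 0.33 on the log2 scale, with 0 past the threshold in limma (0 also at an unadjusted p under 0.05, and 0 by edgeR or DESeq2). HLA-F, which can present long peptides, had no more than 7 reads in any control library and 7 to 11 in low glucose. MR1, which presents vitamin B metabolites to MAIT cells, went from 107 ± 28.6 to 135 ± 9.02 normalized counts (SD, n = 3, log2 fold change 0.36, limma adjusted p = 0.137). FCGRT, the heavy chain of the neonatal Fc receptor and another partner of B2M, went from 93.2 ± 16.0 to 115 ± 20.5 (0.30, limma adjusted p = 0.209).

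The promoters of HLA-B, HLA-C and B2M are shown because these 3 chains share the SXY module. Sequences are RefSeq's for GRCh38.p14, 5′ to 3′ along the gene, from the windows of 250 bases before to 50 after the annotated start, in which 7 of the 9 members were found (HLA-E and NLRC5 were not in the table). Capitals mark matches to the interferon-stimulated response element in a long form (GAAA, any 2 bases, GAAA) and a short form (AANNGAAA), to a kB-like site (GGG, any 2 bases, TT, any base, CC) and to the pair TGACG and ATTGG, which are cores of the X2 and Y boxes of the module. Matches were taken on both strands, and the pair was taken with 15 to 35 bases between. Every long form also holds a short form. The motifs were chosen after these sequences had been seen.
HLA-B, chr6:31357243-31357362, minus strand: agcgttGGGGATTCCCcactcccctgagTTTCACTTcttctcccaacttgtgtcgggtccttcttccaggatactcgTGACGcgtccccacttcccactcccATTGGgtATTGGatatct
HLA-C, chr6:31272162-31272249, minus strand: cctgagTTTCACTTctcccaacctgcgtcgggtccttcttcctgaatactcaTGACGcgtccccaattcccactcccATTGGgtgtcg
B2M, chr15:44711367-44711478, plus strand: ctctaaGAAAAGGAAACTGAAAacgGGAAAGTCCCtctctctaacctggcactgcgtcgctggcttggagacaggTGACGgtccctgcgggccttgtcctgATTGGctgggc

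The TGACG and ATTGG pair was found in these 3 promoters of the 7 and in 0.723% of all 35116 promoter windows. The gap was 20 bases in HLA-B and HLA-C and 21 in B2M, and a second ATTGG in HLA-B lay 27 bases from TGACG. A member counted if any of its windows held a match, while the shares are of single windows. The kB-like letters stand at -177 to -168 from the annotated start in HLA-B and at -125 to -116 in B2M, and they occur in 5.68% of all windows. The short form was present in all 7 members and in 22.8% of all windows. Neither TGATGNAA, a core of the sites bound by ATF4 with CHOP, nor the endoplasmic reticulum stress element (CCAAT, any 9 bases, CCACG) occurred in any of the 7 windows (3.62% and 0.0769% of all windows).

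B2M (ENSG00000166710.20, plus strand of chromosome 15, 44711358 to 44718851) encodes the light chain that every class I heavy chain needs to fold. Its normalized counts were 2048, 1355 and 2239 in control and 1952, 1999 and 2112 in low glucose. The conditions overlapped, and the middle control library stood far below the other 5. From 1881 ± 465 to 2021 ± 82.1 (SD, n = 3), the log2 fold change was 0.14 (SE 0.138, 95% interval -0.16 to 0.43, limma adjusted p = 0.501). Without the middle control library it was -0.08, and with a trend in transcript length removed it was -0.03.

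The balance of light to heavy chain transcripts was compared within each library, where the scaling between libraries drops out. The log2 ratio of B2M to HLA-B normalized counts was 1.34, 1.01 and 1.29 in control and 0.50, 0.45 and 0.64 in low glucose. All 3 low-glucose ratios were below all 3 control ratios, with a difference of the means of -0.68. The exact permutation test (two-sided) gave p = 0.1, the smallest that 3 against 3 libraries allow, and 0.129 after Benjamini-Hochberg adjustment over 9 ratios. In TPM, B2M stood at 1.65, 1.21 and 1.59 times the sum of the 3 heavy chains in control and at 1.01, 0.963 and 1.105 times in low glucose. The heavy chain sum itself was 221 to 263 TPM in control and 361 to 389 in low glucose.

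The log2 fold changes of the 3 heavy chains differed in size, and neither of the 2 ratios compared passed the test, which 3 against 3 libraries cannot do. The log2 ratio of HLA-B to HLA-E moved from a mean of -0.30 ± 0.306 to 0.13 ± 0.0252 (SD, n = 3), without overlap (exact permutation p = 0.1, adjusted 0.129). The difference of 0.43 rested in part on the middle control library, and without that library it was 0.26. For HLA-B to HLA-C the step was smaller, from 0.28 ± 0.0902 to 0.41 ± 0.0300 (SD, n = 3), also without overlap (exact permutation p = 0.1, adjusted 0.129). That difference of 0.13 became 0.08 without the deepest control library. As a share of the TPM of these 3 chains, HLA-B took 36.8% to 40.1% in control against 43.1% to 43.9% in low glucose. HLA-E took 25.5% to 34.9% in control against 23.6% to 24.2% in low glucose, so its share was smaller although its level was higher. The HLA-C share overlapped, at 28.3% to 34.7% and 32.1% to 33.0%.

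**Figure D2:**
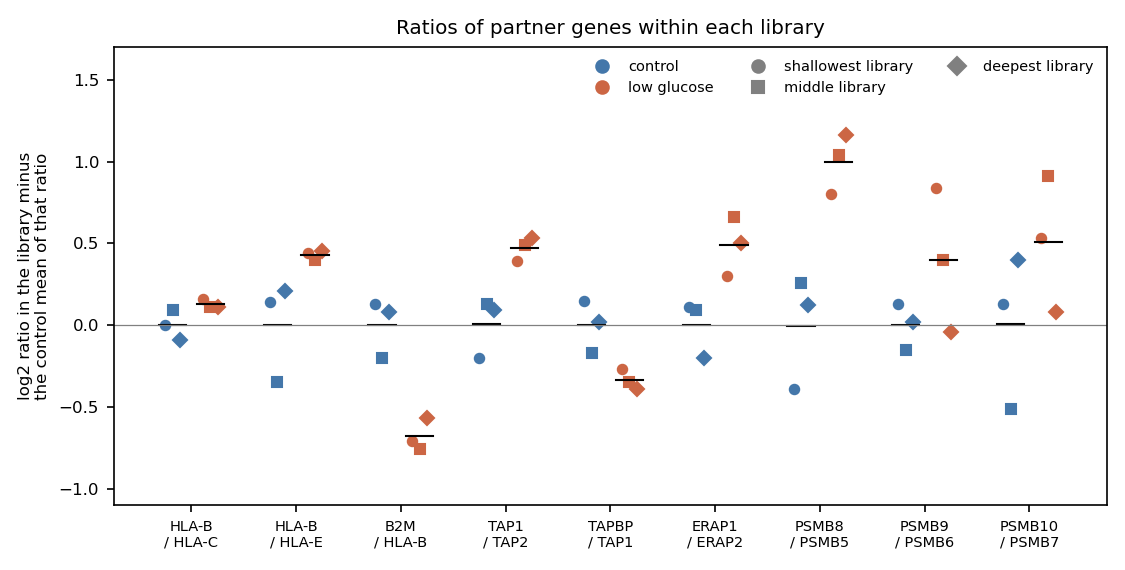
Log2 ratio of 9 pairs of partner genes in each library, with the control mean of the ratio subtracted (unitless), for control and low glucose. Bars are means and marker shapes give the library's depth rank. For 7 pairs the conditions do not overlap, with B2M over HLA-B lower by 0.68 and PSMB8 over PSMB5 higher by 1.0 in low glucose, while PSMB9 over PSMB6 and PSMB10 over PSMB7 overlap. Among single tested genes 43.9% do not overlap, and the share over other gene pairs was not computed. HLA-B and TAP1 recur among the pairs, so the pairs are not independent.

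TAP1 (ENSG00000168394.11, minus strand of chromosome 6, 32845209 to 32853816) and TAP2 (ENSG00000204267.15, minus strand, 32821833 to 32838739) form the peptide transporter as a heterodimer. TAP1 had 507, 582 and 503 normalized counts in control and 516, 550.2 and 574 in low glucose. These values overlapped. The log2 fold change of TAP1 was 0.04 (SE 0.0912, 95% interval -0.15 to 0.24, limma adjusted p = 0.753). PSMB8-AS1, on the other strand with 672 shared exon bases, had 18.6% to 24.7% of TAP1's level and a log2 fold change of 0.26 that did not pass (limma adjusted p = 0.203).

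TAP2 had 289, 264 and 235 normalized counts in control and 196, 194 and 197 in low glucose. The low-glucose libraries were all below control and differed by few counts from each other. TAP2 fell by 0.42 on the log2 scale (SE 0.111, 95% interval -0.66 to -0.18, limma adjusted p = 0.0101), from 263 ± 26.9 to 196 ± 1.35 (SD, n = 3). The call was lost without the shallowest control library (-0.35, limma adjusted p = 0.0581, range 0.00248 to 0.0581 over all alternatives). The log2 ratio of TAP1 to TAP2 was 0.81, 1.14 and 1.10 in control and 1.40, 1.50 and 1.54 in low glucose, without overlap and with a difference of 0.47 (exact permutation p = 0.1, adjusted 0.129).

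TAPBP (ENSG00000231925.11, minus strand of chromosome 6, 33299694 to 33314284) bridges the heavy chain and the transporter. Its normalized counts were 1437, 1319.7 and 1298 in control and 1093, 1102 and 1115 in low glucose, again all lower. The mean went from 1352 ± 75.0 to 1103 ± 11.4 (SD, n = 3), a ratio of 0.816. TAPBP fell by 0.29 on the log2 scale (SE 0.0754, limma adjusted p = 0.00888). Its call was the least steady of the 5, with limma adjusted p-values of 0.265 after quantile normalization (log2 fold change -0.12), 0.0700 without the variance trend, 0.0575 without the shallowest control library and 0.0522 without the shallowest low-glucose library, in a range of 0.000948 to 0.265. An annotated lncRNA, ENSG00000289100, shares 1397 exon bases with TAPBP on the other strand and was not among the genes of the table.

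The promoters of the transporter and of tapasin are shown because all 3 hold the long form of the interferon element. Capitals mark the same motifs as above.
TAP1, chr6:32853761-32853844, minus strand: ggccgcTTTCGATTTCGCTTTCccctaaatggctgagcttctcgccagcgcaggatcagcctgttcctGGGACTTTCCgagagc
TAP2, chr6:32838782-32838807, minus strand: ctggggAAGCGAAAGCGAAAgctgcc
TAPBP, chr6:33314079-33314140, minus strand: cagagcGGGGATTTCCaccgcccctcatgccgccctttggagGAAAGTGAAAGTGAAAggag

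The long form was found in 5 of the 7 members, namely B2M, TAP1, TAP2, TAPBP and ERAP1, and in 3.57% of all windows. In ERAP1 the match lies after the annotated start, at 2 to 11. The kB-like letters occur in 5 of the 7, which are HLA-B, B2M, TAP1, TAPBP and ERAP1. A match of letters does not show that a factor binds there.

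The remaining members of the peptide loading complex and of heavy chain folding changed in both directions. Of 7 listed genes, 2 rose, 1 fell and 4 did not pass, with a median log2 fold change of 0.19. CALR (calreticulin) had 8037 to 8246 normalized counts under control conditions and 14402.5 to 17149 under low glucose, and it rose by 0.95 (SE 0.0846, limma adjusted p = 1.80e-06). PDIA3 (ERp57), the disulfide isomerase bound to tapasin, rose by 0.68 (SE 0.0901, limma adjusted p = 5.47e-05), from 3394 ± 370.1 to 5440.0 ± 369.9 (SD, n = 3). Within the loading complex, CALR and PDIA3 thus passed as higher and TAPBP as lower. GANAB, the catalytic subunit of glucosidase II that trims glycans before calreticulin binds, fell by 0.34 (limma adjusted p = 0.00327). GANAB's call was also lost in an alternative, with adjusted p-values of up to 0.238. The log2 ratio of TAPBP to TAP1 fell by 0.34, from 1.35 ± 0.162 to 1.02 ± 0.0629 (SD, n = 3), without overlap (exact permutation p = 0.1, adjusted 0.129).

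ERAP1 (ENSG00000164307.13, minus strand of chromosome 5, 96760810 to 96808100) trims peptides in the endoplasmic reticulum. It had 723, 815 and 650.5 normalized counts in control and 802, 814 and 869 in low glucose. Only the middle control library reached the low-glucose range. The log2 fold change was 0.19 (SE 0.0921, 95% interval -0.01 to 0.39, limma adjusted p = 0.138). It passed with library size scaling (0.27, limma adjusted p = 0.0313), quantile normalization (0.32, 0.0121), removal of a length trend (0.19, 0.0471) and without the middle control library (0.27, 0.0076), and over all alternatives the adjusted p ranged from 0.0076 to 0.358. CAST, on the other strand with 299 shared exon bases, had a count of 394% to 450.2% of ERAP1's and a log2 fold change of 0.07 (limma adjusted p = 0.619). The lncRNA ENSG00000248734, also on the other strand with 252 shared exon bases, rose by 0.82 (limma adjusted p = 0.0144), at 3.28% to 6.86% of ERAP1's count. The lncRNA ENSG00000272109, with 256 shared exon bases there, did not pass (0.35, limma adjusted p = 0.457).

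ERAP2, a second trimming peptidase of the endoplasmic reticulum, had a negative log2 fold change that did not pass the test. It had 97.5 to 112 normalized counts in control and 75.0 to 94.8 in low glucose (log2 fold change -0.30, limma adjusted p = 0.165). The log2 ratio of ERAP1 to ERAP2 was 2.89, 2.87 and 2.58 in control and 3.08, 3.44 and 3.28 in low glucose, a difference of 0.49 without overlap (exact permutation p = 0.1, adjusted 0.129). Of the 8 peptidases listed beside ERAP1, ERAP2 among them, 3 fell and none rose, with a median of -0.21. BLMH (bleomycin hydrolase) fell by 0.64 (limma adjusted p = 0.000150), THOP1 (thimet oligopeptidase, which destroys peptides) by 0.52 (limma adjusted p = 0.000163) and NPEPPS (puromycin-sensitive aminopeptidase) by 0.42 (limma adjusted p = 0.00517). NPEPPS was not called in every alternative (adjusted p of up to 0.108).

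On the side of peptide supply, only transcripts of proteasome genes were followed, and proteasome activity and peptides were not measured. Of 6 genes of the immunoproteasome and its activator, PSMB8 rose and 5 did not pass, with a median log2 fold change of 0.21. PSMB8, the inducible chymotrypsin-like subunit that lies next to TAP1, had 33.6, 42.4 and 53.5 normalized counts in control and 67.2, 79.8 and 80.3 in low glucose. The values did not overlap, and the log2 fold change was 0.82 (SE 0.208, limma adjusted p = 0.00803, up to 0.0518 over the alternatives). PSMB9 (0.14) and PSMB10 (0.46) overlapped between the conditions. Of the constitutive subunits that they replace, PSMB6 fell by 0.26 (limma adjusted p = 0.0382, up to 0.532), and PSMB5 and PSMB7 did not pass (median of the 3, -0.17).

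PSMB8 remained scarce beside its constitutive counterpart. The log2 ratio of PSMB8 to PSMB5, both taken per kilobase, was -5.49 in control and -4.49 in low glucose. The libraries did not overlap (difference 1.0, exact permutation p = 0.1, adjusted 0.129). For PSMB9 to PSMB6 the difference was 0.40 and for PSMB10 to PSMB7 it was 0.51, each with overlap (exact permutation p = 0.3). The first became 0.18 without the shallowest and 0.62 without the deepest low-glucose library, and the second 0.25 without the middle control and 0.30 without the middle low-glucose library.

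NLRC5 (ENSG00000140853.15, plus strand of chromosome 16, 56989485 to 57083531) was the least abundant member. It had 66, 59 and 48 reads in the control libraries and 92, 75 and 71 in the low-glucose libraries. As normalized counts these were 74.0, 65.8 and 51.4 in control and 90.9, 72.1 and 53.8 in low glucose, with overlap. The log2 fold change was 0.16 (SE 0.216, limma adjusted p = 0.615), and its 95% interval of -0.30 to 0.63 leaves room for a change in either direction. Without the shallowest low-glucose library it was -0.02.

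The factors that assemble with NLRC5 on the SXY module gave small changes. Of 9 listed, 2 rose, 1 fell and 6 did not pass, with a median of -0.15. RFX5 rose by 0.30 (limma adjusted p = 0.0151, up to 0.0843 over the alternatives) and RFXANK also by 0.30 (limma adjusted p = 0.0291, up to 0.135), both subunits of the RFX complex at the X box. NFYA, a subunit of NF-Y at the Y box, fell by 0.54 (SE 0.0795, limma adjusted p = 0.000143), from 786 ± 19.5 to 540.5 ± 17.1 normalized counts (SD, n = 3).

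The interferon and NF-kB genes that act on class I promoters were split. Of 16 listed, 3 rose, 5 fell and 8 did not pass, with a median of 0.03. SOCS3, a feedback inhibitor of JAK signalling, fell by 0.87 (limma adjusted p = 0.000782), from 98.7 to 103 normalized counts in control to 53.8 to 57.3 in low glucose. STAT2, which works with IRF9 downstream of type I interferon, rose by 0.59 (limma adjusted p = 0.000701). IRF1, a direct activator of class I and TAP1 promoters, rose by 0.40 (limma adjusted p = 0.0171, up to 0.0829 over the alternatives). JAK1 also rose, by 0.27 (limma adjusted p = 0.0166, up to 0.0909). Genes that fell included NFKB1 (-0.39, limma adjusted p = 0.00625, up to 0.0754), IFNAR1 (-0.25, 0.0261, up to 0.280) and TYK2 (-0.22, 0.034, up to 0.678).

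EZH2 and SUZ12, subunits of the PRC2 complex that can silence class I genes through H3K27 methylation, both fell. EZH2 fell by 0.36 (limma adjusted p = 0.00159) and SUZ12 by 0.38 (limma adjusted p = 0.00325), while EED did not pass. The median of the 3 was -0.36. EZH2 (up to 0.0818) and SUZ12 (up to 0.0544) each lost the call in at least 1 alternative.

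Genes that act on class I turnover included the largest change past the threshold of all the lists. Of 10 listed, 4 rose and 1 fell, with a median of 0.18. SEL1L, the adaptor of the endoplasmic reticulum degradation complex that removes misfolded heavy chains, rose by 1.82 (SE 0.106, limma adjusted p = 3.65e-08), from 419 to 563 normalized counts in control to 1547 to 1832 in low glucose. SYVN1 (HRD1), the ubiquitin ligase of the same complex, rose by 1.61 (SE 0.0880, limma adjusted p = 1.86e-08), from 464 ± 13.8 to 1423 ± 142 (SD, n = 3). WWP2, a ubiquitin ligase that takes part in lysosomal disposal of class I, fell by 0.36 (limma adjusted p = 0.0437, up to 0.203). GRN (progranulin) and HM13 (signal peptide peptidase, which releases the leader peptides bound by HLA-E) rose by 0.36 and 0.27, with limma adjusted p-values of 0.00521 and 0.0125 (up to 0.0788 and 0.0826).

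**Figure D3:**
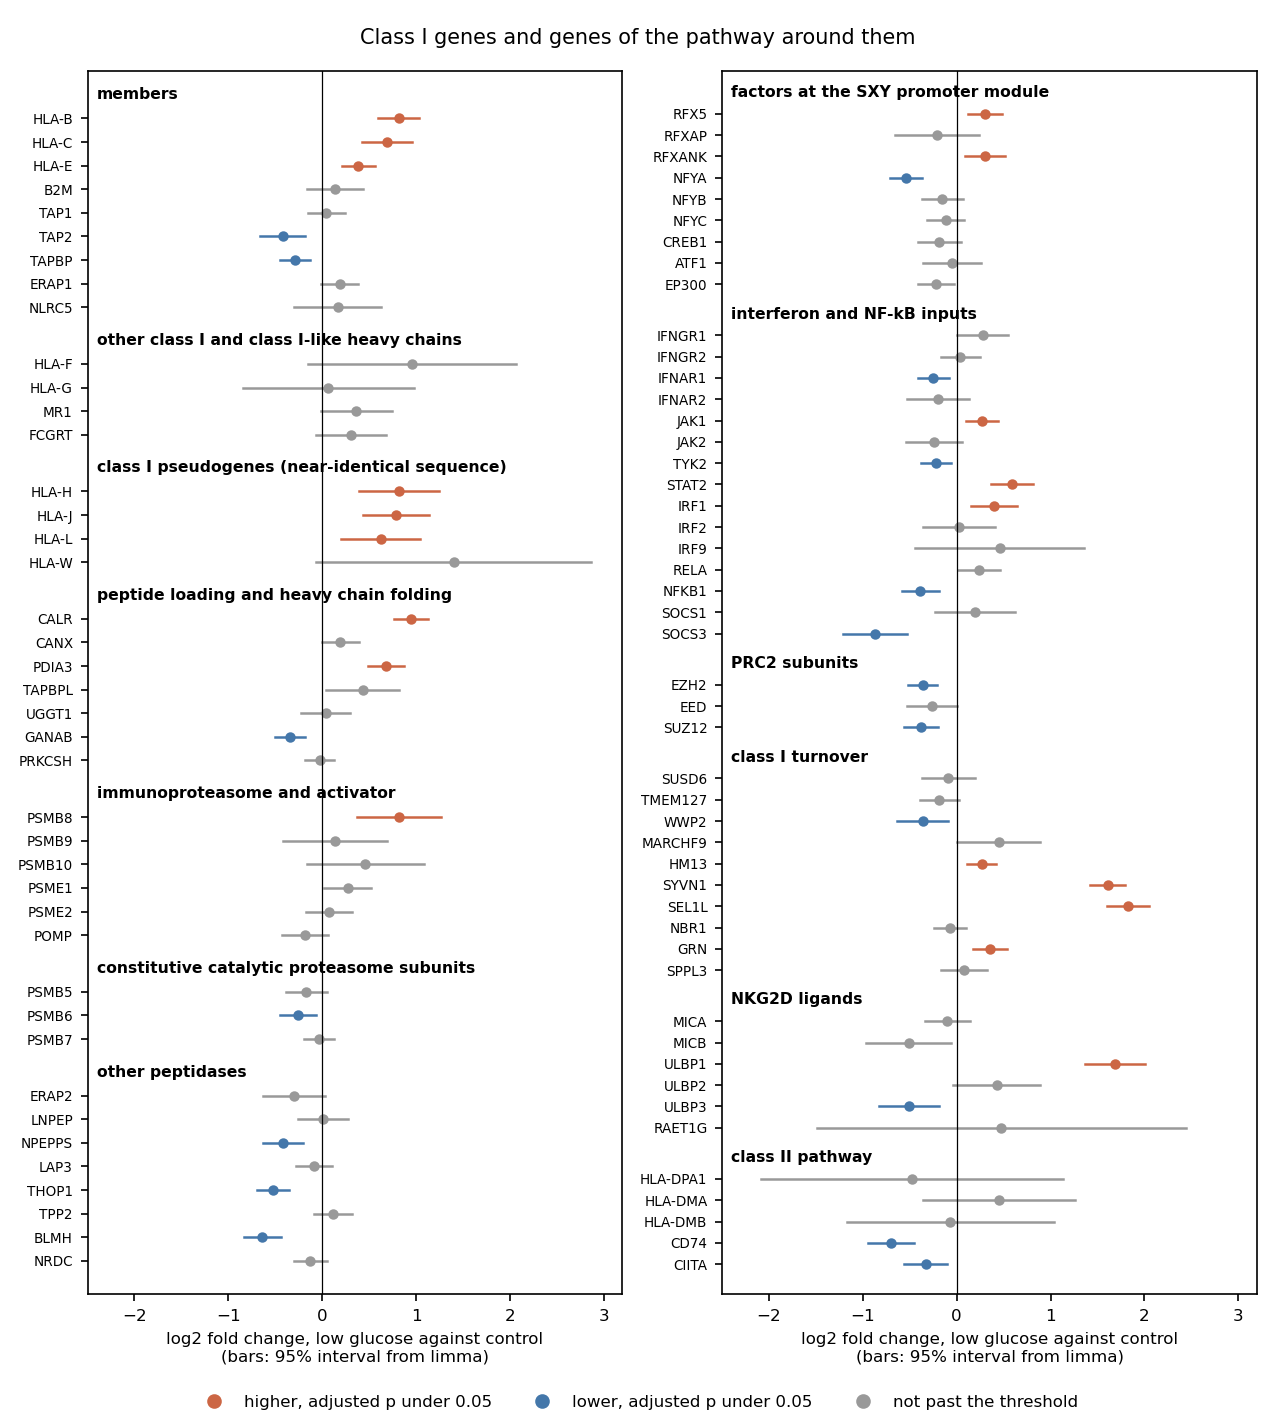
Log2 fold change, low glucose against control, of the 9 class I genes and of tested genes of 12 lists of the surrounding pathway, with 95% intervals from limma. Colour marks genes past an adjusted p of 0.05, and SEL1L (1.82), ULBP1 (1.69) and SYVN1 (1.61) lie farthest to the right among them, beyond HLA-B (0.82).

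Ligands read by natural killer and CD4 T cells were followed beside class I. Of 8 ligands of the activating receptor NKG2D, 6 were tested, 1 rose and 1 fell, with a median of 0.16. ULBP1 had 53.5 to 74.0 normalized counts in control and 200.5 to 217.5 in low glucose, without overlap, and rose by 1.69 (SE 0.150, limma adjusted p = 1.76e-06). ULBP3 fell by 0.51 (limma adjusted p = 0.0182, up to 0.114 over the alternatives). The stress-induced ligands MICA and MICB did not pass.

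Most genes of the class II pathway had few reads or none. Of 12 listed genes 5 were tested, with a median of -0.33, and HLA-DRA and HLA-DRB1 had at most 1 read in a library. CD74, the invariant chain, fell by 0.70 (limma adjusted p = 0.000371), from 235 ± 21.1 to 144 ± 2.99 normalized counts (SD, n = 3). CIITA, the class II counterpart of NLRC5, fell by 0.33 (limma adjusted p = 0.0284, up to 0.124).

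The 12 lists hold 98 genes, of which 81 were tested and 33 were called (40.7%, beside 30.9% of all tested genes), 16 higher and 17 lower. The share over all genes depends on the filter, with 6572 of 16788 genes called at a mean of at least 5 and 6554 of 15322 by edgeR. The lists were chosen with earlier results of these data known, so the difference between the shares is not a test of the lists. Leaving out the shallowest control or the middle low-glucose library reduced this to 20, and leaving out the deepest low-glucose library to 21.

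The control libraries differed from each other by transcript length, which touches several of the values above. Against the other 2 control libraries, the middle library had a median log2 difference of -0.15 over transcripts of up to 1636 bases and of 0.17 over those of 4769 bases and more, the shortest and the longest of 4 classes of equal size. The deepest control library showed the opposite, 0.16 and -0.17. In the low-glucose libraries these medians lay between -0.02 and 0.02. B2M (943 bases), HLA-B (1536) and HLA-C (1542) are in the shortest class, and in the middle control library they differed by -0.66, -0.36 and -0.50. Their deviations were larger than the median of their class. Without this library HLA-B and HLA-C were still called as higher.

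**Figure D4:**
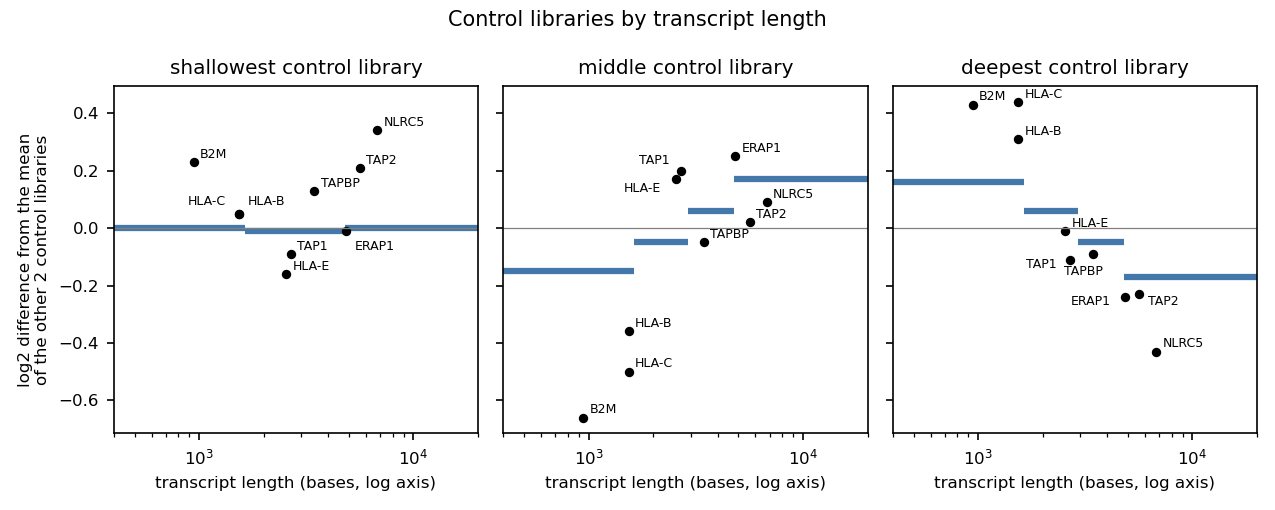
Log2 difference of each control library from the mean of the other 2, against canonical transcript length (bases, log axis). Blue bars are medians over the genes of each of 4 length classes and points are the 9 class I genes. In the middle library the medians run from -0.15 to 0.17, and B2M lies at -0.66.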

How the data were processed

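RNA was sequenced from MiaPaCa-2 cells in 6 strand-specific libraries, 3 per condition. The authors trimmed the reads with Trim Galore, mapped them to hg38 with STAR 2.7.0e and used DESeq2. RSEM is also named among the software, with no step given for it. The tool that counted reads on genes, its strand setting and its annotation are not given in the sources used here. The deposited unit is a count-scale signal: the authors had divided each library's gene counts by its size factor. Whole reads could be recovered for 100% of the values (tolerance 0.01), and size factors recomputed from them over 17906 genes matched the deposited ones. No value column was left unused.

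Samples were grouped by the labels and, for 4 columns, by the run of column names. Log2(value + 1) was fitted by limma 3.58.1 (lmFit, eBayes with a variance trend) in R 4.3.3 where a gene's mean was at least 1. Ratios were tested by exact permutation over libraries. Intervals are 95% intervals from limma. TPM used canonical transcript lengths of Gencode v44, which held 99.5% of the identifiers. The pseudocount understates changes of genes with few reads. Figures were drawn with matplotlib 3.10.9 (Python 3.11.15, pandas 2.3.3, numpy 2.4.6).

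The members and the lists were chosen with earlier results of these data known. The text names all members, the genes of the ratios, up to 3 called genes per list with the largest change (or, where none passed, the 2 with the highest mean), and genes that overlap a member, except those with 0 reads. HLA-F, HLA-W, CD1D, JAK1, NFKB1, IFNAR1, TYK2, EED, MICA, MICB, GRN, HM13, HLA-DRA and HLA-DRB1 are named outside this rule, after their values were seen, and the cell type markers come from a list of their own. Some listed genes count in the totals but are not reported here.

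Alternatives were quantile normalization, TMM or library size scaling, a filter at a mean of 5 or none, a pseudocount of 0.1, no variance trend, a log2 change of 0.5 or more in either direction, edgeR 4.0.16 and DESeq2 1.42.0 on the recovered reads, and each library left out. Removal of length or GC trends (loess, span 0.3) was chosen after seeing the data. On simulated counts with 200 changed genes, limma recovered 132 (89 of 100 at a log2 change of 1, and 43 of 100 at 0.6) with 2 false among 134 calls over 20606 genes tested. The changed genes were drawn from genes with many reads and were far fewer than the 6528 called in the data. The recovery therefore does not give the power for the members.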

Additional observations from a re-analysis of the deposited data

How the results depend on the processing

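Of the 153 member values recomputed under alternatives, 137 kept their direction and their side of the threshold, 6 lost the call, 4 gained it (all ERAP1) and 6 changed sign. The sign changes were B2M (-0.03 with the length trend removed and -0.08 without the middle control library), TAP1 (-0.01 with the length trend and -0.05 with the GC trend removed) and NLRC5 (-0.01 after quantile normalization and -0.02 without the shallowest low-glucose library), none past the threshold. With 1 library left out, B2M ranged from -0.08 to 0.28 and NLRC5 from -0.02 to 0.36. HLA-B and HLA-C kept their direction and their call in all alternatives run without a minimum change, HLA-C narrowly so without the variance trend (limma adjusted p = 0.0498). The cause of the changes was not tested.

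The number of members called, 5, was 3 without the variance trend and 2 where the log2 change also had to be 0.5 or more in size, which by construction takes a subset, and 3 to 6 with 1 library left out (3 without the shallowest control library). Over all genes, 6528 calls became 4090 without the variance trend and 3883 with that minimum change, and 4298 to 7173 with 1 library left out, the fewest without the middle low-glucose library. For the listed genes the range with 1 library left out was 20 to 40. Library size scaling gave 3933 higher and 2646 lower genes (59.8% higher) against 3111 and 3417 (47.7%), and removal of the length or GC trend gave 38.7% and 37.9% higher. On the recovered reads edgeR called 6554 genes and DESeq2 5486, of which 6120 and 5448 were shared with limma. The 7 ratios without overlap became 9 without the deepest low-glucose library, and the share over other gene pairs was not computed. No paired analysis was possible because the columns of 4 of the 6 libraries carry no replicate number. Depth limits NLRC5 most, with 48 to 92 reads per library.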
